A study of Saccharomyces cerevisiae with 6 samples.

Results

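The 10 genes described here encode the enzymes of pyrimidine nucleotide synthesis in budding yeast, Saccharomyces cerevisiae, and one of their regulators: URA1, URA2, URA3, URA4, URA5, URA6, URA7, URA8, URA10 and PPR1. They were found by name among the gene spots of 6 dual-colour Agilent expression arrays, and all 10 were among the 6119 genes tested of 6256 on the array. The set was chosen by the log2 ratios of mutant over TRA1 on these same arrays, so those ratios are given as a description. Where calls of the fit over all genes are counted among the 10, they rest on the same ratios and support nothing.

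The mutant strains carried tra1_P3408A (CY1507), tra1_SRR3413 (CY1531) or tra1_S3463A (CY1514), alleles of the PI3K domain of Tra1, and the comparison strain carried wild-type TRA1 (CY1524). Tra1 is the activator-binding subunit that SAGA and NuA4, complexes that acetylate histones, have in common. In all of these strains, the TRA1 strain included, the chromosomal TRA1 gene was disrupted by Tn10LUK, and the cells lived on a myc-tagged TRA1 or tra1 gene on the plasmid YCplac111, a centromeric plasmid with a LEU2 marker. Tn10LUK is a mini-transposon that carries a yeast URA3 gene, so every strain held that copy of one of the genes described here. Growth medium and culture conditions are not given in the sources used here. Each allele had 2 arrays, called biological replicates by the series, and each array set a mutant against the TRA1 strain. The mutant was labelled with Cy5 on array 1 and with Cy3 on array 2. The source label of array 1 of tra1_S3463A names the tra1_SRR3413 strain, against its title. The title was followed here. The values of that array are printed apart for the URA genes and PPR1, and below for CDD1 and NRD1. For the other genes named, the means and ranges given for tra1_S3463A include that array, and its own value is not printed.

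Yeast makes UMP from glutamine, bicarbonate and aspartate. Ura2 makes carbamoyl phosphate and joins it to aspartate, Ura4 closes the ring, Ura1 oxidises dihydroorotate to orotate, Ura5 and Ura10 add the ribose phosphate, and Ura3 removes carbon dioxide to give UMP. Ura6 then phosphorylates UMP, and Ura7 and Ura8 turn UTP into CTP. Ppr1 is a zinc cluster activator that senses pathway intermediates and acts on URA1, URA3, URA4 and URA10, whereas URA2 and URA8 are known for transcription start sites that shift with the supply of pyrimidine nucleotides.

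Over the 6 arrays the median Cy3 signal of gene spots was between 1167 and 3617 and the median Cy5 signal between 1908 and 2482, and between 99.2% and 99.6% of the gene spots passed Agilent's flag for signal well above background in each channel. TRA1 itself read above the TRA1 strain on all 6 arrays, with log2 ratios between 0.73 and 1.93, and which copy of TRA1 its probe reads was not tested. The plasmid marker LEU2 stood at -0.17 ± 0.13 in tra1_P3408A, -0.40 ± 0.04 in tra1_SRR3413 and -0.19 ± 0.07 in tra1_S3463A (mean ± SD, n = 2). Values of this kind, here and below, are log2 (mutant / TRA1), so a positive value means a higher level in the mutant. The number of arrays limits their precision. The 10 genes had 17 spots per array, of which 2 of 102 measurements were left out as outliers and 0 were saturated. All were well above background in at least 1 channel. The 3 genes with 1 spot were URA4, URA7 and URA10. For the other 7, 2 spots of a gene on an array differed by at most 0.12, in PPR1 and in URA3. The 10 genes lie on 6 chromosomes (II, V, X, XI, XII and XIII). Their coordinates are not given here because the files name no genome build.

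URA2 and URA4, which encode the first steps of the pathway, stayed near the level of the TRA1 strain. URA2, the aspartate carbamoyltransferase and carbamoyl phosphate synthetase gene, read -0.14 and -0.20 on arrays 1 and 2 of tra1_P3408A, -0.15 and 0.13 in tra1_SRR3413, and 0.16 and 0.45 in tra1_S3463A. It was thus below 0 on both arrays of tra1_P3408A and above 0 on both arrays of tra1_S3463A, while the arrays of tra1_SRR3413 fell on both sides of 0. The processed signals of URA2, which Agilent's software corrected for background and dye within each array, overlapped, at 18766 to 28222.5 in the mutants and 20595 to 25890.2 in the TRA1 strain. On array 1 of tra1_S3463A they went the other way from the log2 ratio, with 25130.0 in the mutant and 25890.2 in the TRA1 strain. URA4, the dihydroorotase gene, read 0.16 and -0.05 in tra1_P3408A, 0.14 and -0.07 in tra1_SRR3413, and 0.26 and 0.14 in tra1_S3463A. Only in tra1_S3463A were both arrays above 0, and its mean there was 0.20 ± 0.08 (SD, n = 2). The processed signals of URA4 overlapped, at 4622 to 6624 in the mutants and 4125 to 6038 in the TRA1 strain.

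URA1, which encodes dihydroorotate dehydrogenase, had the largest mean of the 10 genes over the 6 arrays, 1.09 ± 0.31 (SD over the 6 arrays). Its log2 ratio was 1.33 on array 1 and 0.73 on array 2 of tra1_P3408A, 1.32 and 0.79 in tra1_SRR3413, and 1.44 and 0.92 in tra1_S3463A. The means of 1.03 ± 0.42, 1.06 ± 0.38 and 1.18 ± 0.37 (SD, n = 2 each) correspond to 2.05-, 2.08- and 2.26-fold more URA1 RNA in these mutants. All 6 values were above 0, and the 3 alleles differed by less than the gap between the 2 arrays of any one of them. The processed signal was 10307 to 12844 in the mutants and 4049 to 7163 in the TRA1 strain, with no overlap.

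Orotate phosphoribosyltransferase has a major form, Ura5, and a minor form, Ura10, and URA10 lay well below the TRA1 level on every array while URA5 lay near it. URA10 read -1.03 and -1.02 on arrays 1 and 2 of tra1_P3408A, -0.79 and -0.54 in tra1_SRR3413, and -1.27 and -1.05 in tra1_S3463A. Every array was below 0, and neither array of tra1_SRR3413 was as low as any array of the other alleles. This ordering takes array 1 of tra1_S3463A by its title and would not hold by its source label. Its means were -1.03 ± 0.01, -0.67 ± 0.18 and -1.16 ± 0.16 (SD, n = 2 each), levels that were lower by 2.04-, 1.59- and 2.24-fold. URA10 signals were 1340.1 to 2020.5 in the mutants and 2875 to 3231 in the TRA1 strain, again without overlap. URA5 read -0.02 and -0.03 in tra1_P3408A, -0.02 and -0.20 in tra1_SRR3413, and 0.16 and -0.03 in tra1_S3463A. Its mean lay within 0.11 of 0 in each of the 3 alleles, and its signals overlapped, at 9406 to 15206 in the mutants and 10397 to 14269.9 in the TRA1 strain. One of the 2 URA5 spots on array 1 of tra1_S3463A was left out as an outlier. Paralogs of similar sequence may share signal on an array, and the probe sequences were not used here.

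**Figure D1:**
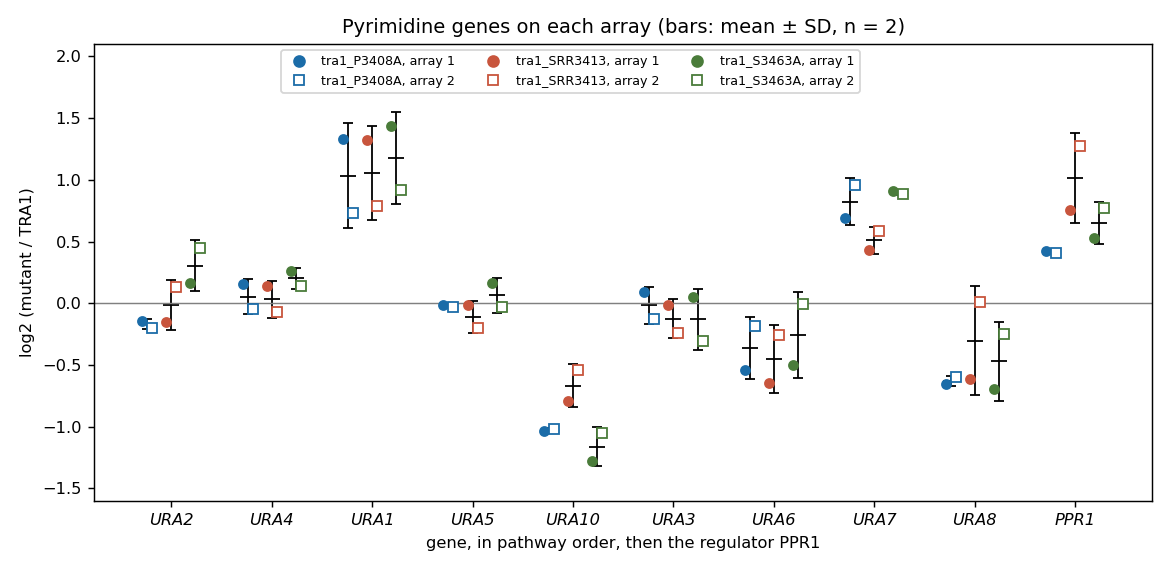
Log2 (mutant / TRA1) of the 10 genes on each of the 6 arrays, with genes in pathway order and PPR1 last. Filled circles are array 1, open squares array 2, and black bars the mean ± SD of the 2 arrays of an allele. URA1, URA7 and PPR1 lie above 0 and URA6 and URA10 below 0 on all 6 arrays.

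URA3, the orotidine-5-phosphate decarboxylase gene, differed little between the strains. It read 0.09 and -0.12 in tra1_P3408A, -0.01 and -0.24 in tra1_SRR3413, and 0.05 and -0.30 in tra1_S3463A. Array 1 was the higher of each pair, and the allele means were between -0.13 and -0.02, with SDs of 0.15 to 0.25. The URA3 signals were 152 to 205 in the mutants and 164 to 227 in the TRA1 strain. Which copies of URA3 the probe reads, that of Tn10LUK or one at the chromosomal locus, was not tested.

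URA6, the UMP kinase gene, was below the TRA1 strain on all 6 arrays. Its log2 ratio was -0.54 and -0.19 on arrays 1 and 2 of tra1_P3408A, -0.64 and -0.26 in tra1_SRR3413, and -0.50 and -0.01 in tra1_S3463A. Its means were -0.37 ± 0.25, -0.45 ± 0.27 and -0.26 ± 0.35 (SD, n = 2 each), and in tra1_S3463A the SD exceeded the mean. Array 2 of tra1_S3463A was nearly at the level of the TRA1 strain. The URA6 signals were 4033 to 6081 in the mutants and 6129 to 7133 in the TRA1 strain, close to each other but without overlap.

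The pair of CTP synthase genes lay on opposite sides of the TRA1 level, URA7 above it on all 6 arrays and URA8 below it on 5 of 6. URA7, which encodes the major CTP synthase, read 0.69 and 0.96 on arrays 1 and 2 of tra1_P3408A, 0.43 and 0.58 in tra1_SRR3413, and 0.91 and 0.88 in tra1_S3463A. All 6 values were above 0, and both arrays of tra1_SRR3413 were below every array of the other alleles. That ordering too would not hold if array 1 of tra1_S3463A were taken by its source label. The means of 0.82 ± 0.19, 0.51 ± 0.11 and 0.90 ± 0.02 (SD, n = 2 each) are 1.77-, 1.42- and 1.86-fold higher levels. URA7 signals of 2993 to 4842 in the mutants did not overlap those of 2145 to 2583 in the TRA1 strain.

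URA8, the gene of the minor CTP synthase, read -0.66 and -0.60 in tra1_P3408A, -0.62 and 0.01 in tra1_SRR3413, and -0.70 and -0.25 in tra1_S3463A. The array above 0 was array 2 of tra1_SRR3413. Its means were -0.63 ± 0.04, -0.30 ± 0.44 and -0.47 ± 0.32 (SD, n = 2 each), so that in tra1_SRR3413 the SD exceeded the mean. URA8 signals overlapped, at 3413.4 to 5615 in the mutants and 5173 to 7280.0 in the TRA1 strain. On each of the 6 arrays, the log2 ratio of URA7 was above that of URA8.

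PPR1, the activator gene, was above the TRA1 strain on all 6 arrays. Its log2 ratio was 0.42 and 0.41 on arrays 1 and 2 of tra1_P3408A, 0.76 and 1.27 in tra1_SRR3413, and 0.53 and 0.77 in tra1_S3463A. Both arrays of tra1_P3408A were below every array of the other alleles, while tra1_SRR3413 and tra1_S3463A overlapped. No allele was on all 3 slides, so an ordering of alleles may include slide differences. With the slide fitted as a block, PPR1 stood at 0.54 in tra1_P3408A, 0.97 in tra1_SRR3413 and 0.57 in tra1_S3463A. In that fit tra1_P3408A and tra1_S3463A were close. Means of 0.42 ± 0.01, 1.01 ± 0.37 and 0.65 ± 0.17 (SD, n = 2 each) are 1.33-, 2.02- and 1.57-fold higher levels. The signal of PPR1 was 483 to 1027 in the mutants and 323 to 391 in the TRA1 strain. The 4 genes named above as targets of Ppr1 did not share a direction: URA1 was higher, URA10 was lower, and URA3 and URA4 were near the level of the TRA1 strain in these mutants. Of these, URA3 was read from dim spots.

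**Figure D2:**
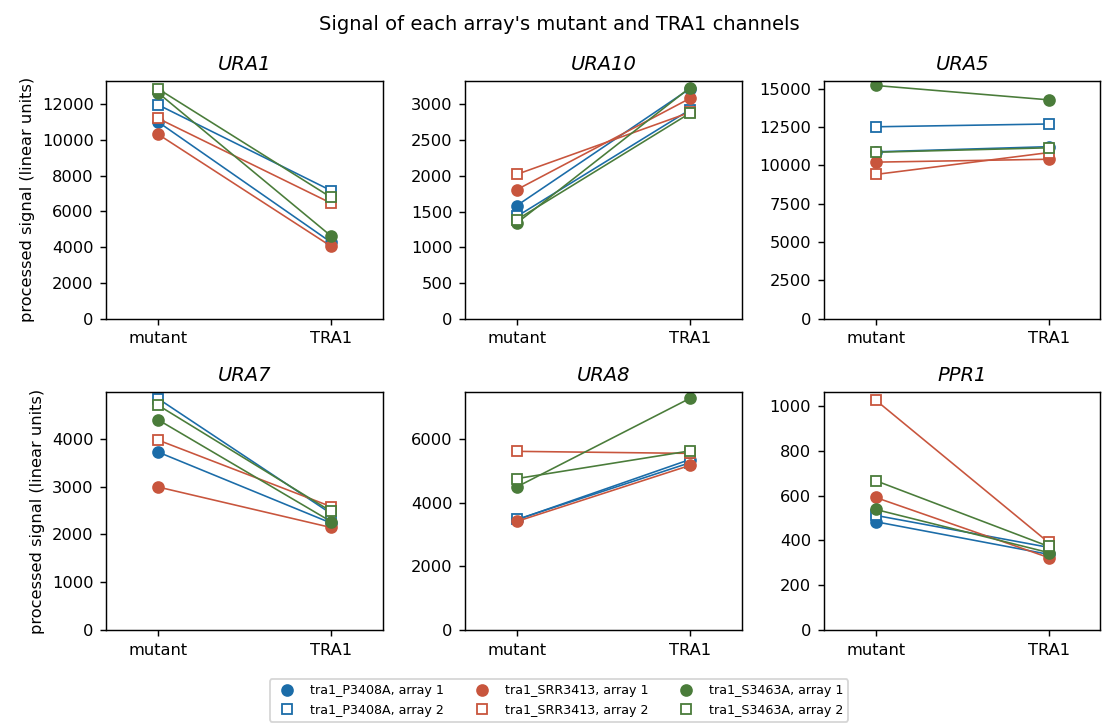
Processed signal (linear units, axis from 0) in the mutant channel, left, and the TRA1 channel, right, with one line per array, for URA1, the paralogs URA10 and URA5, the paralogs URA7 and URA8, and PPR1. Lines of URA1, URA7 and PPR1 descend and lines of URA10 ascend on all 6 arrays, while URA5 lines stay nearly level. Signals of different genes are on different scales and cannot be compared.

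Of the 10 genes, 5 were on one side of 0 on all 6 arrays, 3 above and 2 below, and 48.9% of all genes tested were so, 24.2% above and 24.7% below. In the limma fit of all 6 arrays with Benjamini-Hochberg adjustment over 6119 genes and a threshold of 0.05, URA1 and URA7 passed upward (background 4.76%) and URA10 downward (7.93%) in tra1_P3408A, 3 of 10 genes against 12.7% of all genes. In tra1_SRR3413 and in tra1_S3463A alike, 4 of 10 passed, namely URA1, URA7 and PPR1 upward and URA10 downward. The background shares were 9.33% upward, 11.7% downward and 21.1% in either direction in tra1_SRR3413, and 6.37%, 8.69% and 15.1% in tra1_S3463A. Since these ratios chose the genes, nothing is read from the counts. The median over the 10 genes was -0.02 in tra1_P3408A, -0.06 in tra1_SRR3413 and 0.13 in tra1_S3463A, and that over all genes -0.01, -0.01 and 0.00163. The 3 comparisons share the TRA1 strain, and deviations of that strain's RNA would appear in all of them.

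With the array number as a replicate block in limma, 6, 5 and 7 of the 10 genes passed in tra1_P3408A, tra1_SRR3413 and tra1_S3463A, beside backgrounds of 36.2%, 49.2% and 43.1%. The block added URA6, URA8 and PPR1 in tra1_P3408A, URA6 in tra1_SRR3413, and URA2, URA6 and URA8 in tra1_S3463A. A block takes out deviations that the alleles share, those of the TRA1 strain included, so its p-values may be too small. Without array 1 or without array 2 of tra1_P3408A, 0 of the 10 genes passed in that allele in limma, where 2 and 3 had an unadjusted p under 0.05, and 1 and 46 genes of the whole array passed, so these counts say nothing of the 10. In tra1_SRR3413, 1 gene of the 10 passed without array 1 of that allele, PPR1, and 1 without array 2, URA1, beside 714 and 330 genes of the whole array. In tra1_S3463A, 1 gene, URA10, passed without array 1 and also without array 2 of that allele, beside 151 and 138 genes of the whole array. With median centring in place of loess, URA1 missed the threshold in all 3 alleles and PPR1 in tra1_S3463A.

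The 2 arrays of an allele differ in dye orientation and, for every allele, in slide, and for some of the 10 genes they differed in the same direction in all 3 alleles. This is not particular to the 10 genes. Over all 6119 genes, deviations of equal-numbered arrays correlated at 0.512 (tra1_P3408A and tra1_SRR3413), 0.467 (tra1_P3408A and tra1_S3463A) and 0.930 (tra1_SRR3413 and tra1_S3463A). For URA1, array 1 exceeded array 2 by 0.60 in tra1_P3408A, 0.53 in tra1_SRR3413 and 0.52 in tra1_S3463A. These gaps compare with median absolute gaps over all genes of 0.18, 0.29 and 0.28. URA3 and URA4 also read higher on array 1 in each allele, by 0.12 to 0.35, and URA5 by 0.01 to 0.20. URA6, URA8 and URA10 read lower on array 1 in each allele, URA10 by gaps of -0.02, -0.25 and -0.22 and URA6 by gaps of -0.36, -0.39 and -0.49. The gaps of URA8 and PPR1 were widest in tra1_SRR3413, at -0.62 and -0.52, and near 0 in tra1_P3408A, at -0.06 and 0.01. Dye orientation goes with the array number in every allele and cannot be told apart from it here. The slide follows the orientation only in part. Slide 1 held array 1 of tra1_P3408A and of tra1_SRR3413, and slide 3 held array 2 of tra1_SRR3413 and of tra1_S3463A. Slide 2 held both orientations, with array 2 of tra1_P3408A and array 1 of tra1_S3463A. The pair that shared slide 3 had the correlation of 0.930, and the pair that shared slide 1 that of 0.512. The parts of dye and slide in the gaps were not tested. Each allele holds 1 array of each orientation, so a dye effect of equal size cancels in its mean.

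**Figure D3:**
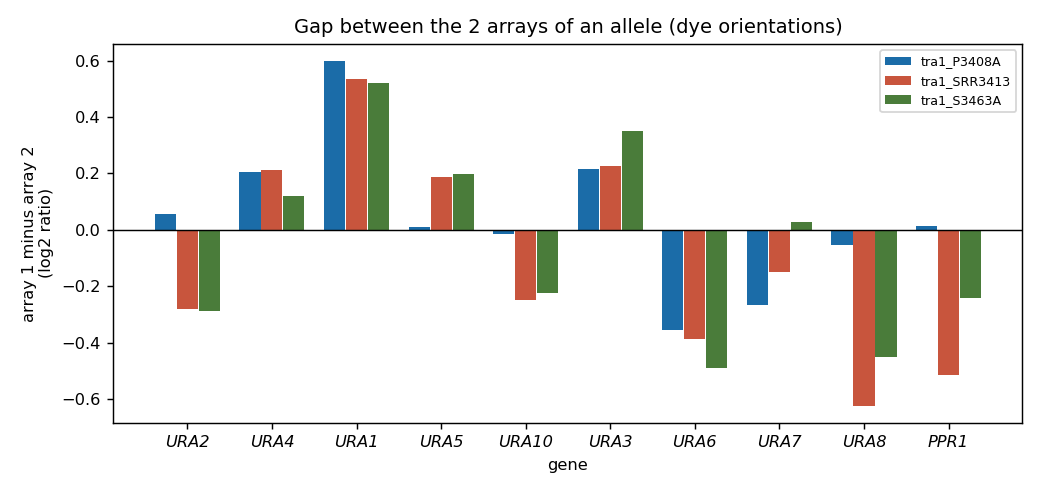
Log2 ratio on array 1 (mutant in Cy5) minus that on array 2 (mutant in Cy3), one bar per allele for each of the 10 genes. URA1 has gaps of 0.52 to 0.60 in all 3 alleles and URA6 gaps of -0.49 to -0.36.

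A further 35 genes of pyrimidine supply, salvage, use and regulation were listed, of which 34 could be tested (FCY1 lacked a value on some array). In limma with Benjamini-Hochberg adjustment over all 6119 genes, 4 of 34 passed in tra1_P3408A (11.8%, against 12.7% of all genes), 6 in tra1_SRR3413 (17.6%, against 21.1%) and 4 in tra1_S3463A (11.8%, against 15.1%). These shares are near the background, so the lists as a whole did not stand out. With the array number as a replicate block 13, 18 and 14 of the 34 passed, beside 36.2%, 49.2% and 43.1% of all genes. The medians over the 34 genes were 0.00167, -0.21 and -0.08.

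Of the uptake and salvage genes, 1 of 11 fell in tra1_P3408A (9.09%, against 7.93% of all genes), 2 in tra1_SRR3413 (18.2%, against 11.7%) and 2 in tra1_S3463A (18.2%, against 8.69%). CDD1, which encodes the cytidine deaminase that turns cytidine into uridine, fell in each of the 3 alleles. It read -0.89 and -0.69 on arrays 1 and 2 of tra1_P3408A, -0.97 and -0.89 in tra1_SRR3413, and -1.02 and -0.91 in tra1_S3463A. Its level was lower by 1.73-fold (-0.79 ± 0.14, limma adjusted p = 0.0106), 1.91-fold (-0.93 ± 0.05, adjusted p = 0.00484) and 1.95-fold (-0.97 ± 0.08, adjusted p = 0.00592; SD, n = 2 each). The CDD1 signals of 487 to 567 in the mutants lay below those of 926 to 1162 in the TRA1 strain. FCY21, a close relative of the cytosine permease gene FCY2, fell in tra1_SRR3413 (-0.54 ± 0.28, limma adjusted p = 0.0488) and stood at -0.13 ± 0.17 in tra1_P3408A and -0.27 ± 0.20 in tra1_S3463A. PHM8, a nucleotidase gene, fell in tra1_S3463A (-0.43 ± 0.12, limma adjusted p = 0.0469) and stood at -0.28 ± 0.03 in tra1_P3408A and -0.12 ± 0.02 in tra1_SRR3413. With the array number as a replicate block, FCY21 passed in tra1_S3463A also (adjusted p = 0.0292) and PHM8 in tra1_P3408A also (0.0337), in limma. The other genes of this list, among them the uracil permease gene FUR4 and the uracil phosphoribosyltransferase gene FUR1, did not pass in any allele. Without array 1 or array 2 of the same allele, CDD1 missed the threshold in tra1_P3408A (adjusted p = 0.192 and 0.104) and tra1_S3463A (0.0638 and 0.0522), and it passed in tra1_SRR3413 without any one array (0.00751 to 0.0359). FCY21 (0.0551 to 0.392) and PHM8 (0.0761 to 0.288) missed it without any one of the 6 arrays, and both also missed it with Agilent's processed signals (0.0647 and 0.0664) and with median centring (0.108 and 0.0977).

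Of the 9 supply genes, 0 passed in tra1_P3408A (against 12.7% of all genes) and in tra1_S3463A (against 15.1%). In tra1_SRR3413, 1 fell (11.1%, against 11.7%). Among those that did not pass, GLN1 had a single spot that was flagged as saturated on all 6 arrays. Its ratios therefore cannot be read as unchanged. PRS3, which encodes a subunit of the synthase of the ribose phosphate donor PRPP, read -0.46 and -0.51 on the arrays of tra1_SRR3413 (-0.48 ± 0.03, limma adjusted p = 0.0224), and stood at -0.23 ± 0.01 in tra1_P3408A and -0.21 ± 0.05 in tra1_S3463A. It was below 0 on all 6 arrays, and the difference between alleles was not tested. Of the 9 conversion and use genes, UGP1 fell in tra1_P3408A (11.1%, against 7.93% of all genes) and CDS1 in tra1_SRR3413 (11.1%, against 11.7%). In tra1_S3463A, 0 passed (against 15.1% in either direction). UGP1, which makes UDP-glucose from UTP, stood at -0.75 ± 0.21 in tra1_P3408A (limma adjusted p = 0.0336), -0.29 ± 0.15 in tra1_SRR3413 and -0.37 ± 0.35 in tra1_S3463A. CDS1, which makes CDP-diacylglycerol from CTP, stood at -0.57 ± 0.10 in tra1_P3408A, -0.65 ± 0.26 in tra1_SRR3413 (limma adjusted p = 0.0359) and -0.32 ± 0.33 in tra1_S3463A. With the array number as a replicate block, UGP1 and CDS1 passed in all 3 alleles and PRS3 in tra1_P3408A also. PRS3 and CDS1 missed the threshold without array 1 or 2 of tra1_P3408A (0.0609 to 0.0610 and 0.0823 to 0.0827) or of tra1_SRR3413 (0.115 to 0.205 and 0.0839 to 0.1997) and with median centring (0.0902 and 0.0879), PRS3 also with only the arrays of the allele (0.127). UGP1 missed it without array 1 or 2 of tra1_P3408A (0.351 and 0.172) and with processed signals (0.0742), the deposited log ratios (0.0741) or the series table (0.0712).

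The last list held genes of start-site switching, early termination and elongation, processes known to set the level of URA2 and URA8 transcripts, together with ADE12. ADE12 is not a factor of these processes and was listed for its own alternative start sites. In each allele 2 of the 5 genes passed, NRD1 and ADE12. The backgrounds were 12.7% in tra1_P3408A, 21.1% in tra1_SRR3413 and 15.1% in tra1_S3463A. The list was drawn up with earlier results of these data known, so nothing is read from this share. NRD1, which encodes an RNA-binding protein of the complex that ends short transcripts early, rose. It read 0.95 and 0.71 on arrays 1 and 2 of tra1_P3408A, 1.06 and 1.48 in tra1_SRR3413, and 0.84 and 1.28 in tra1_S3463A. The rises were 0.83 ± 0.17 (limma adjusted p = 0.0304), 1.27 ± 0.30 (0.00640) and 1.06 ± 0.31 (0.0137; SD, n = 2 each), and both arrays of tra1_P3408A were below both of tra1_SRR3413, while tra1_S3463A overlapped each of these alleles. By the source label of array 1 of tra1_S3463A, tra1_P3408A and tra1_SRR3413 would overlap in NRD1. ADE12, the adenylosuccinate synthase gene of AMP synthesis, which like URA2 and URA8 is known for alternative start sites, fell by 1.47 ± 0.07 (adjusted p = 0.00554), 1.20 ± 0.38 (0.00709) and 1.21 ± 0.23 (0.00850) on the log2 scale in limma. ADE12 signals were 3010.0 to 4512 in the mutants and 8077 to 9383 in the TRA1 strain. SEN1, the helicase gene of the same termination complex, was above 0 on all 6 arrays (0.24 to 1.07) and did not pass, and NAB3 and the elongation factor gene DST1 did not pass either. Without array 1 or 2 of tra1_P3408A, NRD1 (0.322 and 0.176) and ADE12 (0.127 and 0.0915) missed the threshold there. In tra1_S3463A, NRD1 missed it without array 2 (0.110) and ADE12 without array 1 (0.0739), and both passed in tra1_SRR3413 without any one array.

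**Figure D4:**
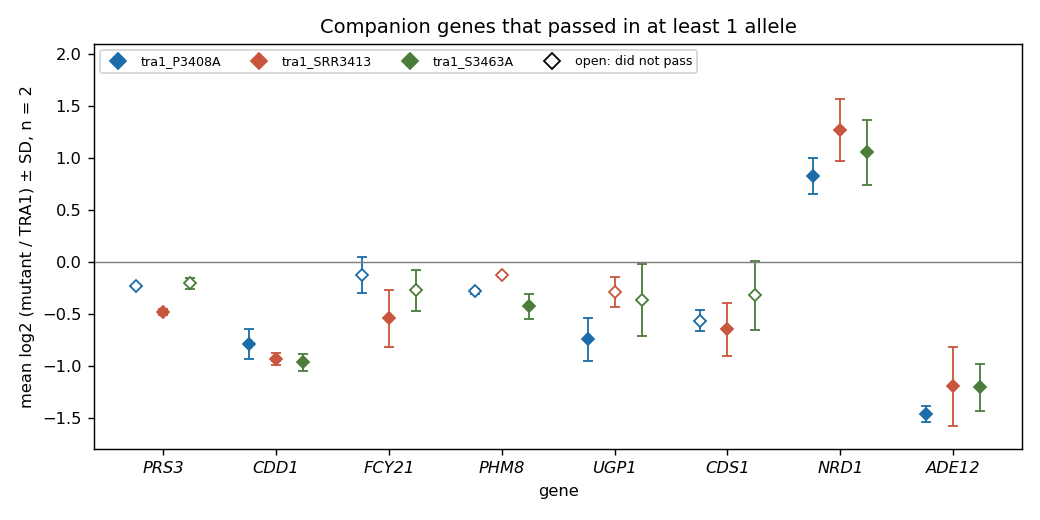
Mean log2 (mutant / TRA1) ± SD of the 2 arrays of each allele for the 8 listed genes that passed in at least 1 allele. Filled symbols passed and open symbols did not. CDD1 and ADE12 lie below 0 and NRD1 above 0 in all 3 alleles.

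The 5 genes whose log2 ratios over the 6 arrays were closest to those of URA1, by the root mean square difference, were RPL5 (0.0997), RPS26B (0.115), ATG10 (0.125), PLB3 (0.150) and RNA14 (0.160), with means over the 6 arrays of 1.06, 1.02, 1.04, 1.08 and 1.10. RPL5 and RPS26B encode ribosomal proteins, ATG10 a conjugating enzyme of autophagy, PLB3 a phospholipase B and RNA14 a factor of mRNA 3-prime end formation. RPS26B has a near-identical copy, so its probe cannot be taken as specific. These 6 arrays share the TRA1 strain, so likeness over them is a description.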

How the data were processed

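Values of 6 arrays were read from the authors' scanner files. Per the file headers, Agilent Feature Extraction 7.5.1 made the intensity values: mean spot and median local background intensity, uncorrected, and processed intensity, from which background was taken (header code 7 for the method) before lowess dye normalization. Each scanner file also holds a deposited log10 ratio of Cy5 over Cy3. The deposited series table holds log10 ratios that equalled mutant over TRA1 dye-normalized ratios within 1e-04 for 100% of gene spots compared on every array (column medians -0.00157 to 0.0139). Spot class and flags are deposited as whole numbers, other than any measurement.

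Intensities were background-corrected by normexp (offset 50) and loess-normalized within arrays in limma 3.58.1 (R 4.3.3), with the 544 control spots at weight 0. Control spots and outlier-flagged spots were then left out (0.370% to 8.02% of gene spots), ratios turned to mutant over TRA1 on the log2 scale, and spots averaged per gene. Genes well above background in a channel on at least 2 arrays, with a value on all arrays, were tested (2 and 135 genes removed). Each allele's mean was tested against 0, two-sided, in 1 fit of 6 arrays. This leaves out the TRA1 strain's own spread where 1 extract served several arrays. Of the systematic names, 92.0% matched the R64 gene table used for symbols.

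The array number marks dye orientation per the labels, and deviations of equal-numbered arrays correlated at 0.512, 0.467 and 0.930 between alleles, so it was also fitted as a block. The genes and lists were chosen with earlier results of these data known. Named were all 10 genes, listed genes past the threshold in at least 1 allele, the 5 genes most like the one with the largest mean, TRA1 and LEU2. FUR4, FUR1, FCY1, SEN1, NAB3 and DST1 were added to the names once values were known. The label of 1 Cy3 or Cy5 channel conflicts with its source on array 2 of tra1_SRR3413 and of tra1_S3463A, and the label fields and titles were followed. The fit was also run on simulated data with noise drawn independently for each array. That setting lacks the correlated deviations seen here, so the run says nothing of false calls in these data.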

Additional observations from a re-analysis of the deposited data

Results flagged for a closer look

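URA2 was below the TRA1 strain on both arrays of tra1_P3408A and above it on both arrays of tra1_S3463A, with allele means that differed by 0.48 on the log2 scale (0.31 ± 0.20 in tra1_S3463A and -0.17 ± 0.04 in tra1_P3408A, SD, n = 2 each). The difference was not tested, because the ratios of URA2 had chosen it. Array 1 of tra1_S3463A, whose source label names another strain, read 0.16 and its array 2 read 0.45. The processed signals of that array 1 went the other way, with 25130.0 in the mutant and 25890.2 in the TRA1 strain, so the sign there turns with the processing.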

How the results depend on the processing

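The values of the 10 genes were recomputed under 16 alternatives, and no value of a gene that passed changed its sign. Of the recomputed values, 452 moved by less than the SD between arrays and 28 by more. Several alternatives leave an allele's mean unchanged by construction. Where an allele keeps 1 of its 2 arrays, its mean must move by less than that SD. The 452 therefore do not measure robustness. The number of genes that passed changed with the fit. With the array number as a replicate block, limma called 2214 genes in tra1_P3408A, 3010 in tra1_SRR3413 and 2635 in tra1_S3463A, of which 6, 5 and 7 were among the 10 genes and 13, 18 and 14 among the listed genes. With the slide as a block it called 2679, 3126 and 2983 genes, of which 5, 6 and 8 were among the 10 genes and 14, 15 and 16 among the listed genes. Only the arrays of tra1_P3408A gave 1582 genes, 5 of the 10 and 9 listed genes. Median centring called 529 genes in tra1_P3408A and 1082 in tra1_SRR3413, where the main fit called 776 and 1289. It left 2 of the 10 genes in tra1_P3408A, 3 in tra1_SRR3413 and 2 in tra1_S3463A, and URA1 missed the threshold in all 3 alleles. Counting array 1 of tra1_S3463A with tra1_SRR3413 gave 2004 genes in tra1_SRR3413 and 326 in tra1_S3463A, of which 0 were among the 10 genes (5 at an unadjusted p under 0.05 in limma), with 1 array left there. Leaving out 1 array at a time gave 1 to 801 genes in tra1_P3408A, 330 to 1218 in tra1_SRR3413 and 138 to 963 in tra1_S3463A. The 10 genes then held 0 to 4, 1 to 4 and 1 to 4 calls, and the listed genes 0 to 4, 3 to 5 and 1 to 3. An arm with 1 array was assumed to vary like the others. The cause of these changes was not tested.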

Other observations

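URK1, the uridine kinase gene, and FUI1, the uridine permease gene, were above the TRA1 strain on all 6 arrays without passing in limma. URK1 stood at 0.40 ± 0.14 in tra1_P3408A, 0.36 ± 0.12 in tra1_SRR3413 and 0.45 ± 0.22 in tra1_S3463A (limma adjusted p = 0.102, 0.103 and 0.0677). FUI1 stood at 0.44 ± 0.11, 0.16 ± 0.19 and 0.50 ± 0.33 (adjusted p = 0.116, 0.472 and 0.0752). Both were picked out after their values were seen.

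The protein-coding genes next to the 10 genes on the chromosome gave 18 that could be tested. In limma 0 passed in tra1_P3408A, 2 in tra1_SRR3413 and 0 in tra1_S3463A (2, 5 and 3 at an unadjusted p under 0.05), beside 12.7%, 21.1% and 15.1% of all genes. With the array number as a replicate block 2, 7 and 5 passed, beside 36.2%, 49.2% and 43.1% of all genes. YLR419W, beside URA4, read 0.51 ± 0.19 (limma adjusted p = 0.0272) and VPS25, beside URA8, read -0.49 ± 0.22 (adjusted p = 0.0425) in tra1_SRR3413. Without array 2 of tra1_SRR3413 they missed the threshold (0.301 and 0.376), as they did without array 1 (0.0632 and 0.0708) or either array of tra1_P3408A (0.0692 to 0.0923). VPS25 also missed it without array 1 (0.0568) or 2 (0.0570) of tra1_S3463A. These neighbours were chosen after the data were seen.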
